A study of Mus musculus with 6 samples.

Results

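Transcripts of 56 genes of glutathione, peroxidase and peroxiredoxin metabolism were examined in the lobes of the mouse prostate. The 56 were the rows of a table of 24908 genes whose symbols name a glutathione S-transferase, a glutathione peroxidase, a peroxiredoxin, a superoxide dismutase, a thioredoxin or a thioredoxin reductase, together with Cat, Gclc, Gclm, Gss, Nqo1, Hmox1 and Nfe2l2. The choice was by name and not by a threshold on their values. Of these, 46 reached a mean of 1 FPKM across the 6 libraries and entered the comparisons, among 12361 genes that reached it. FPKM are fragments per kilobase of transcript, adjusted for the reads mapped in a library, so that levels can be compared between genes. The 10 others, which were Gsta1, Gstm6, Gsto2, Gstp3, Gstt4, Mgst2, the pseudogene Gpx2-ps1, Gpx5, Gpx6 and Prdx6b, reached at most 1.90 FPKM in any library, and Gpx5 was listed at 0 in each of the 6.

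Bulk RNA-seq was performed on the anterior (AP), dorsolateral (DLP) and ventral (VP) prostate of 12-week-old FVB males. One group was the Hi-MYC line (MYC), which is heterozygous for a human c-MYC transgene that the ARR2Pb promoter drives in prostatic epithelium. The other was a wild-type littermate (WT). Animals of both genotypes received the same purified diet from weaning. Each genotype was represented by 1 mouse, and each lobe of that mouse gave 1 library from RNA of a dissociated cell suspension, so that genotype and mouse cannot be told apart and no p-value could be computed.

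Glutathione is a small thiol that cells hold in high concentration. Glutathione peroxidases use it to reduce hydrogen peroxide and lipid peroxides, glutathione S-transferases couple it to electrophilic compounds, and glutamate-cysteine ligase and glutathione synthetase make it. Peroxiredoxins reduce peroxides through a reactive cysteine, which is restored by thioredoxin for several of them and by glutathione for Prdx6. The transcription factor NRF2, encoded by Nfe2l2, binds the antioxidant response element and is known to activate many of these genes, among them Nqo1, Gclc, Gclm and Hmox1.

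The depth of the libraries ran from 25.4 M reads in WT AP to 49.9 M in MYC AP, as recovered from the steps of the low FPKM values. The row for Myc stood at 230.0, 200.6 and 226.4 FPKM in WT AP, DLP and VP and at 230.9, 586.1 and 1696 FPKM in MYC AP, DLP and VP, and it does not separate the human transgene from the mouse gene. The 10 luminal epithelial markers were above 0 in every library and summed to between 2741 and 4843 FPKM. The libraries also differed in other cell types. For 12 fibroblast and matrix markers, the DLP libraries summed to 2500 FPKM (WT) and 1270 FPKM (MYC), and the VP libraries to 1258 FPKM (WT) and 342.2 FPKM (MYC). Most of the DLP sums was Dcn (1155 FPKM in WT and 453.9 in MYC) and Gsn (1026 and 474.5 FPKM). Of the 12 markers, 3 were higher in MYC DLP, which were Col1a1, Col1a2 and Col3a1. For 16 hematopoietic markers, the sums were 139.3 FPKM (WT) and 638.2 FPKM (MYC) in DLP, and 70.3 FPKM (WT) and 384.3 FPKM (MYC) in VP. For 8 basal epithelial markers, the AP libraries summed to 2354 FPKM (WT) and 1287 FPKM (MYC). Their sums were 1597 FPKM (WT) and 2171 FPKM (MYC) in DLP, and 747.8 FPKM (WT) and 504.1 FPKM (MYC) in VP. MYC AP held 524.1 FPKM of 9 seminal vesicle genes, which summed to 0.112 FPKM in WT AP and 11.3 FPKM in MYC DLP. The part of these differences in the values of the 56 genes was not tested. In bulk RNA, fewer cells of a type and less RNA per cell cannot be told apart.

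Summed over the 56 genes, the transcripts came to 2403, 3533 and 2908 FPKM in WT AP, DLP and VP and to 2392, 2342 and 1867 FPKM in MYC AP, DLP and VP. This corresponded to 0.642%, 0.816% and 0.709% of all FPKM of the WT libraries and to 0.629%, 0.521% and 0.386% of the MYC libraries. The sums of the AP libraries were close to each other, whereas those of MYC DLP and MYC VP lay below WT. Much of the DLP gap was Prdx6: without it the DLP sums were 2533 FPKM (WT) and 2258 FPKM (MYC), while the VP sums were 2536 and 1774 FPKM and the AP sums 1726 and 1999 FPKM. In WT DLP, the 5 most abundant members made up 55.6% of the sum. Genotypes were compared by the log2 ratio, which is log2(FPKM + 1) of MYC minus log2(FPKM + 1) of WT, and a gene was called at a log2 ratio of at least 1 or at most -1, which is a 2-fold change on this scale. The pseudocount of 1 understates the change of low genes.

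**Figure D1:**
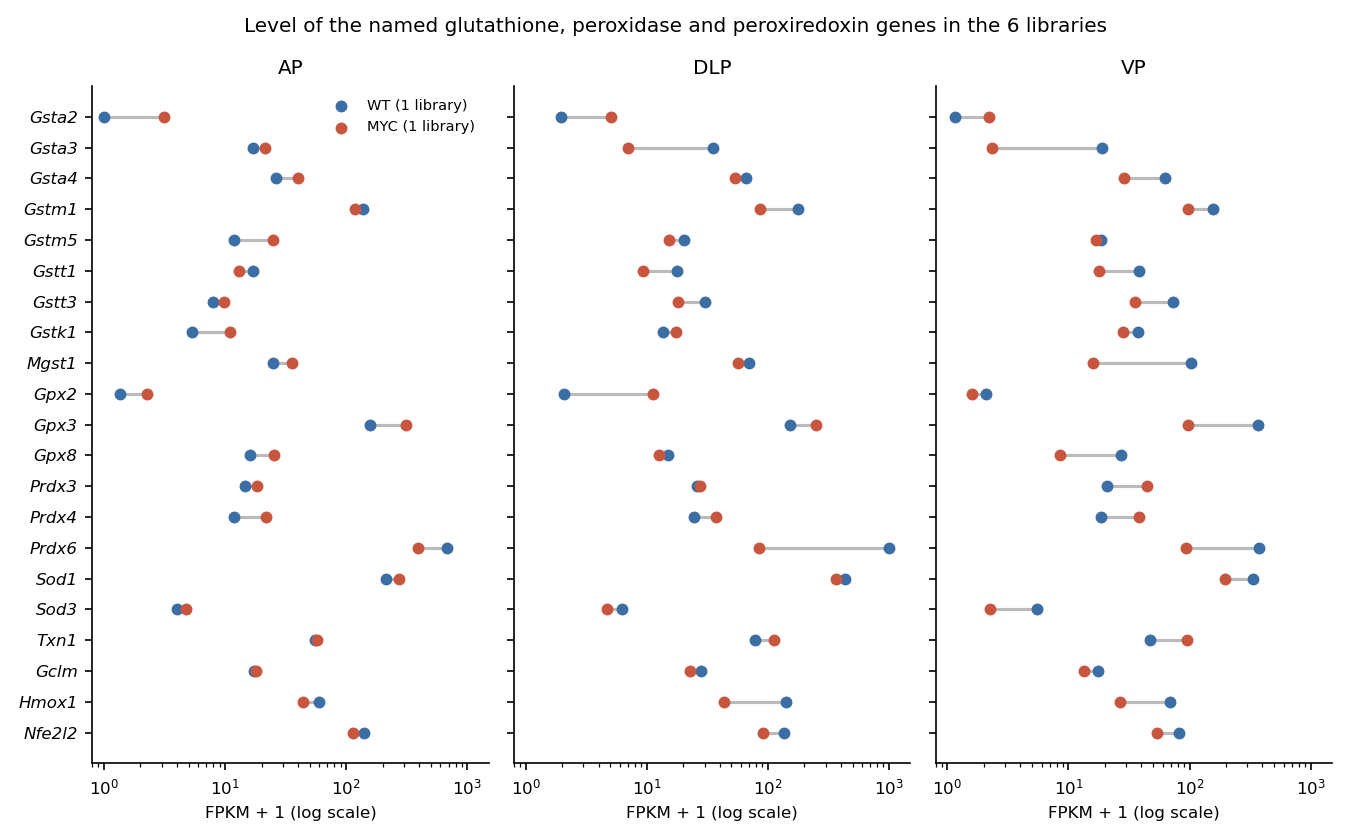
Level of the 21 named genes in each library, as FPKM + 1 on a log axis, with 1 panel per lobe; blue points are WT, red points are MYC, each point is 1 library and the grey line joins the pair. The widest gaps are those of Prdx6 in DLP (999.1 FPKM in WT and 83.9 FPKM in MYC) and of Gsta3 in VP (17.8 and 1.34 FPKM).

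VP was the lobe in which most members differed between the genotypes. Of the 46 members compared, 10 were at least 2-fold lower in MYC VP (21.7%), while 5.95% of all genes compared were lower by this measure. The 10 were the peroxidases Gpx3, Gpx8 and Prdx6, the transferases Gsta3, Gsta4, Gstt1, Gstt3 and Mgst1, the extracellular superoxide dismutase Sod3 and Hmox1. Prdx3, Prdx4 and Txn1 were at least 2-fold higher (6.52% of members and 6.88% of all genes). In DLP, 4 members were lower (8.70% of members and 3.39% of all genes), which were Prdx6, Gsta3, Gstm1 and Hmox1, and Gpx2 and Gsta2 were higher (4.35% of members and 6.46% of all genes). In AP, Gsta2, Gstk1 and Gstm5 were higher (6.52% of members and 2.05% of all genes) and no member was lower (0.599% of all genes). Gsta2 and Gpx2 reached the mean of 1 FPKM only through MYC libraries in which they were high. They thus entered the counts of higher members through the same values that gave their calls.

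Prdx6, Gsta3 and Hmox1 were lower in both DLP and VP (6.52% of members and 1.88% of all genes), and no member was higher in both (2.82% of all genes). In AP, DLP and VP, the members had median log2 ratios of 0.28, -0.24 and -0.29, and all genes had medians of 0.13, 0.03 and 0.04. The log2 ratio was above 0 for 34 members in AP (73.9%), 18 in DLP (39.1%) and 16 in VP (34.8%), and for 66.4%, 53.5% and 53.2% of all genes. At 1.5-fold, 9 members were higher in AP (19.6% of members and 7.53% of all genes) and 2 lower (4.35% and 3.13%), 5 were higher in DLP (10.9% and 13.4%) and 8 lower (17.4% and 9.44%), and 7 were higher in VP (15.2% and 16.7%) and 17 lower (37.0% and 14.9%). A change of 1.5-fold upwards in 1 lobe and downwards in another was found in 5 members (10.9%) and in 2.97% of all genes. The split at 2-fold in VP moved with the scaling of the libraries. With size factors from medians of ratios it was 0 members higher and 10 lower (5.77% and 7.42% of all genes). It was 0 and 12 with equal sums of FPKM, and 7 and 7 relative to the luminal keratins Krt8 and Krt18. Shares of all genes are not given for the latter scalings. Their counts thus do not separate the members from a shift of all genes. Equal sums moved the median of all genes in VP by -0.19 and the keratin ratio moved it by 0.26.

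**Figure D2:**
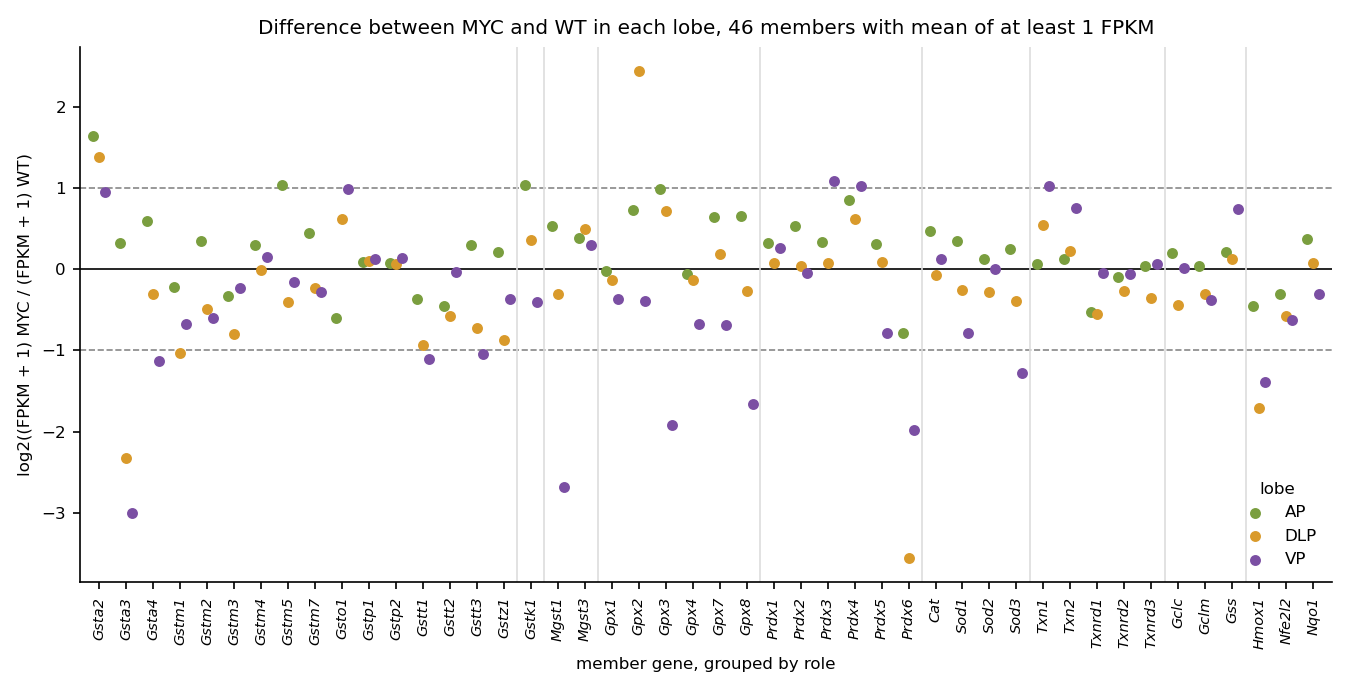
Log2 ratio of MYC against WT for the 46 members compared, ordered by role between the vertical lines (cytosolic, mitochondrial and microsomal glutathione S-transferases, glutathione peroxidases, peroxiredoxins, superoxide dismutases and catalase, thioredoxins and reductases, glutathione synthesis, and Nfe2l2 with Hmox1 and Nqo1), with 1 point per lobe and dashed lines at 2-fold. The values run from -0.78 to 1.64 in AP, from -3.56 to 2.44 in DLP and from -3.0 to 1.09 in VP.

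**Figure D3:**
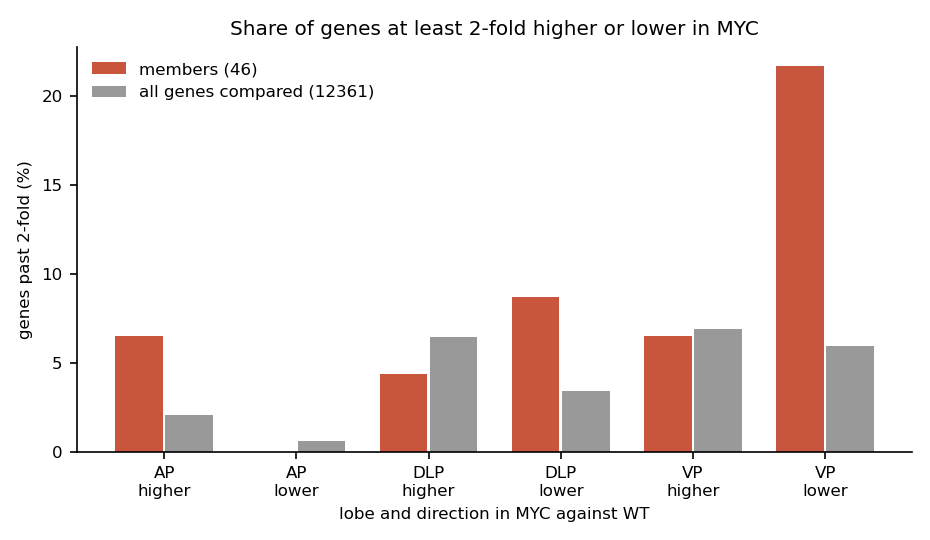
Percentage of the 46 members (red) and of all 12361 genes compared (grey) that were at least 2-fold higher or lower in MYC than in WT, by lobe and direction. The members stand at 21.7% and all genes at 5.95% among genes lower in VP, while the bars for genes higher in VP are close, at 6.52% and 6.88%.

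Prdx6, a peroxiredoxin with a single catalytic cysteine that also has phospholipase A2 activity, had the highest mean level of the members over the 6 libraries. It lies on chromosome 1, 161240112 to 161251210 in the GRCm38.p6 assembly. It had 676.6, 999.1 and 371.2 FPKM in WT AP, DLP and VP and 392.9, 83.9 and 93.0 FPKM in the MYC lobes. Each MYC lobe was below the same WT lobe, and MYC DLP and MYC VP were also below every WT lobe. The ratio of WT to MYC was 11.9 in DLP (95% counting interval 11.4 to 12.4), 3.99 in VP (3.85 to 4.14) and 1.72 in AP (1.68 to 1.76). These intervals rest on estimated reads and cover the counting error of the libraries, not the difference between animals. Among the 24908 genes, Prdx6 ranked 55 by level in WT DLP and 695 in MYC DLP. Prdx6b, whose protein is 86.2% identical to that of Prdx6, was listed at no more than 0.52 FPKM.

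Summed without Prdx6, the peroxiredoxins differed less between the genotypes. They came to 159.2, 264.7 and 248.4 FPKM in WT AP, DLP and VP and to 212.9, 289.9 and 290.9 FPKM in the MYC lobes. In each lobe the MYC sum was the higher, although the low Prdx6b was lower in MYC in each lobe. In VP, Prdx5, at 52.3 FPKM (WT) and 30.1 FPKM (MYC), and Prdx2, at 43.5 FPKM (WT) and 42.3 FPKM (MYC), were also lower. The share of Prdx6 in all peroxiredoxin FPKM was 81.0%, 79.1% and 59.9% in the WT lobes and 64.9%, 22.4% and 24.2% in the MYC lobes. Prdx1, an abundant cytosolic peroxiredoxin, exceeded Prdx6 in MYC DLP with 136.6 FPKM and in MYC VP with 138.2 FPKM, and it stood below Prdx6 in the other 4 libraries.

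**Figure D4:**
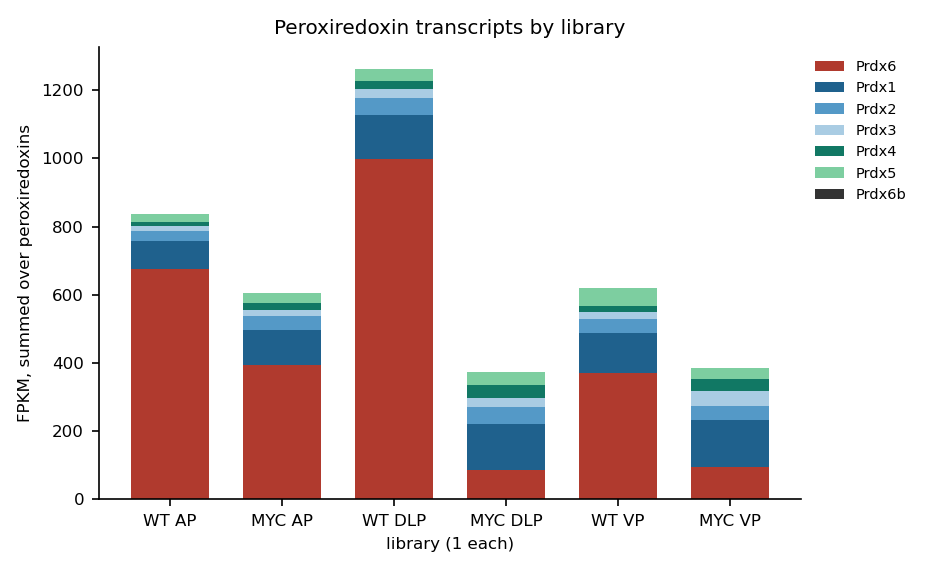
FPKM of the 7 peroxiredoxin genes stacked by library, 1 bar per library. The red segment, Prdx6, makes up 79.1% of the bar of WT DLP and 22.4% of that of MYC DLP, while the rest of the bar sums to 264.7 and 289.9 FPKM.

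Prdx3, the mitochondrial peroxiredoxin, had 13.6, 25.2 and 19.9 FPKM in WT AP, DLP and VP and 17.5, 26.7 and 43.4 FPKM in the MYC lobes, with MYC VP the highest of the 6. Prdx4, the peroxiredoxin of the endoplasmic reticulum, had 10.9, 23.5 and 17.5 FPKM in the WT lobes and 20.7, 36.6 and 36.9 FPKM in the MYC lobes. For Prdx4 each MYC lobe was above its WT counterpart, with log2 ratios of 0.86, 0.62 and 1.03. The VP ratios of MYC to WT were 2.183 for Prdx3 (95% counting interval 2.04 to 2.34) and 2.11 for Prdx4 (1.92 to 2.32). Both lay just past the threshold, and with size factors from medians of ratios their VP log2 ratios were 0.99 and 0.93. Prdx1, Prdx2 and Prdx5 did not pass the threshold in any lobe, and their log2 ratios ranged from -0.78 for Prdx5 in VP to 0.53 for Prdx2 in AP.

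The promoter window of Prdx4 is printed because Prdx4 was 1 of the 2 members with an E-box, the sequence CACGTG that MYC is known to bind. The window runs from 250 bases before to 50 bases after the start of an annotated transcript (RefSeq, GRCm38.p6, chrX:155338411-155338710, minus strand), and the capitals mark the E-box, 52 bases before the start.
Prdx4: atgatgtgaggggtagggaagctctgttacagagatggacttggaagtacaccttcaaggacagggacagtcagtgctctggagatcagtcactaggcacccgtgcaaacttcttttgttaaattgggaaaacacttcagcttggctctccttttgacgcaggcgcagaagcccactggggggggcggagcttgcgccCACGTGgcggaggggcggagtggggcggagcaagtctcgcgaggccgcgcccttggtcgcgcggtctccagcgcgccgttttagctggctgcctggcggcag
The E-box was searched for as CACGTG, which reads the same on both strands. It was found in 2 of the 48 members with a window (4.17%), which were Prdx4 and the nearly silent Gpx6, and in 8.09% of all 27025 genes with a window. The match describes the letters and not a binding site in these cells.

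Txn1, the cytosolic thioredoxin, was also higher in MYC VP. It had 54.3, 76.7 and 46.1 FPKM in WT AP, DLP and VP and 56.8, 112.4 and 94.9 FPKM in the MYC lobes. The AP values were nearly the same, and the DLP and VP values of MYC were above each WT lobe. The VP ratio was 2.06 (95% counting interval 1.95 to 2.181), and its log2 ratio went from 1.03 to 0.92 with size factors from medians of ratios. Txn2, its mitochondrial counterpart, had a VP level of 43.3 FPKM in WT against 74.1 FPKM in MYC (log2 ratio 0.76). The 3 thioredoxin reductases had log2 ratios between -0.55 and 0.06. Txnrd1, the cytosolic one, was the highest of them with 28.7 to 62.3 FPKM.

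Among the glutathione peroxidases, which act on hydrogen peroxide or lipid peroxides, the differences were uneven. Gpx1, the cytosolic enzyme, varied the least, with 180.1 to 232.2 FPKM over the 6 libraries. Gpx3, the secreted form found in plasma (chromosome 11, 54902854 to 54910387), had 156.8, 150.6 and 364.1 FPKM in WT AP, DLP and VP and 312.8, 248.5 and 95.4 FPKM in MYC. VP was the highest lobe in WT and the lowest in MYC, while AP was above DLP in both mice. Gpx3 was 3.82-fold lower in MYC VP (95% counting interval 3.67 to 3.96), and its log2 ratios in AP and DLP were 0.99, just under the threshold, and 0.72.

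Gpx8, a membrane protein of the endoplasmic reticulum, went with Gpx3 in AP and VP. It had 15.2, 14.1 and 26.1 FPKM in WT AP, DLP and VP and 24.5, 11.6 and 7.57 FPKM in MYC, 3.44-fold lower in VP (95% counting interval 3.00 to 3.97). Gpx4, which reduces lipid peroxides within membranes, did not pass the threshold, with a VP level of 126.1 FPKM (WT) against 79.0 FPKM (MYC). Gpx2, a peroxidase best known from the gut epithelium, stood at 0.36, 1.07 and 1.09 FPKM in WT and 1.27, 10.3 and 0.59 FPKM in MYC. Only MYC DLP was above 2 FPKM, and the DLP ratio was 9.59 (6.92 to 13.4, from an estimated 44 reads in WT and 309 in MYC). The pseudogene Gpx2-ps1 was listed at 1.68 FPKM in MYC DLP, and reads shared between the pair cannot be told apart.

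The transferases that were lower in MYC belonged to the alpha, mu, theta and microsomal classes. Gsta3 (chromosome 1, 21240565 to 21265575) had 16.0, 34.5 and 17.8 FPKM in WT AP, DLP and VP and 20.3, 6.04 and 1.34 FPKM in MYC. MYC DLP and MYC VP were below each WT lobe, by 5.70-fold in DLP (95% counting interval 4.82 to 6.79) and 13.2-fold in VP (9.64 to 18.8), and AP was near its WT level. Mgst1, a membrane-bound transferase of the endoplasmic reticulum and mitochondria (chromosome 6, 138140527 to 138156755), had 23.7, 69.0 and 101.0 FPKM in WT and 35.0, 55.8 and 14.9 FPKM in MYC. It was 6.77-fold lower in MYC VP (6.08 to 7.54), while its log2 ratios were 0.54 in AP and -0.30 in DLP.

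Both genes carry a match to the core of the antioxidant response element, TGACNNNGC, in a promoter window, and are the 2 members with the lowest log2 ratios in VP. The windows with the match (RefSeq, GRCm38.p6) are chr1:21240335-21240634, plus strand, for Gsta3 and chr6:138140277-138140576, plus strand, for Mgst1. Mgst1 has another window, chr6:138141337-138141636, without a match. The capitals mark the match, which lies 121 bases before the start in Gsta3 and, read on the minus strand, 56 bases before the start in Mgst1.
Gsta3: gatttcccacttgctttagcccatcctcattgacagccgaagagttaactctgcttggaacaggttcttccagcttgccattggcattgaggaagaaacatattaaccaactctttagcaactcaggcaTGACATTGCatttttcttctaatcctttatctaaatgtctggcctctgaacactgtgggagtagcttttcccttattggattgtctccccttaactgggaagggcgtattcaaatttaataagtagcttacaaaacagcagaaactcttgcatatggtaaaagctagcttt
Mgst1: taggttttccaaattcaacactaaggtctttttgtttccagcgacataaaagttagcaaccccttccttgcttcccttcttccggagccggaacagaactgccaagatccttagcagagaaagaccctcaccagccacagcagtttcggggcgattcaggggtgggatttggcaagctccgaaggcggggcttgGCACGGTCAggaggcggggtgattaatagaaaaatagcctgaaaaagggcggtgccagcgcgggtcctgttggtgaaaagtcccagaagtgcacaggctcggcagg
On either strand, the core was present in 9 of the 48 members with a window (18.8%) and in 14.0% of all 27025 genes with a window. A gene was counted if any of its windows matched, and the 48 members had 62 windows. The 9 were Gclm, Gsta3, Gstm5, Gstm7, Mgst1, Nfe2l2, Prdx1, Sod1 and Txnrd1. Their VP log2 ratios ran from -3.0 for Gsta3 to 0.26 for Prdx1, so that members with the match were found among those lower in VP as well as among those that did not pass the threshold. The 8 members without a window were Gclc, Gpx2-ps1, Gsta4, Gstt2, Hmox1, Prdx6, Prdx6b and Sod3. They were not searched for the core or for the E-box.

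Gsta4, which conjugates products of lipid peroxidation, had 25.3, 65.5 and 61.7 FPKM in WT AP, DLP and VP and 39.0, 52.8 and 27.6 FPKM in MYC. It was 2.23-fold lower in MYC VP, and its log2 ratio in AP was 0.60. Gstt1 and Gstt3, neighbouring theta-class genes on chromosome 10 (75783813 to 75798584 and 75774117 to 75781422), were both lower in MYC VP. Gstt1 had 16.0, 16.7 and 37.5 FPKM in WT and 12.1, 8.30 and 16.9 FPKM in MYC, and Gstt3 had 7.02, 29.0 and 72.4 FPKM in WT and 8.88, 17.3 and 34.7 FPKM in MYC. In both genotypes VP was the lobe with the highest level of each. These 3 VP differences were small past the threshold, with log2 ratios of -1.13, -1.11 and -1.04, and relative to Krt8 and Krt18 they were -0.87, -0.84 and -0.78.

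Gstm1, the most abundant transferase of the list by its mean, had 136.5, 176.3 and 153.9 FPKM in WT AP, DLP and VP and 116.9, 85.5 and 96.5 FPKM in MYC. MYC DLP was the lowest of the 6 and 2.06-fold below WT DLP (95% counting interval 1.96 to 2.16). The protein of Gstm3 is 84.4% identical to that of Gstm1, and how reads were divided among the mu-class genes is uncertain. The 2 pi-class genes compared, Gstp1 and Gstp2, were steady, with log2 ratios between 0.06 and 0.14. Their proteins are 97.1% identical, and Gstp1 ranged from 25.8 to 40.2 FPKM and Gstp2 from 17.4 to 27.1 FPKM.

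The 3 transferases called in AP were all higher in MYC. Gstk1, the transferase of mitochondria and peroxisomes, had 4.38, 12.5 and 36.3 FPKM in WT AP, DLP and VP and 10.1, 16.4 and 27.4 FPKM in MYC. Gstm5 had 10.9, 19.2 and 17.7 FPKM in WT and 23.7, 14.3 and 15.8 FPKM in MYC. The AP ratios of MYC to WT were 2.30 for Gstk1 (95% counting interval 1.80 to 2.96) and 2.16 for Gstm5 (1.84 to 2.57), and with size factors from medians of ratios neither passed the threshold, at log2 ratios of 0.91 and 0.90. Gsta2 was listed at 0 in WT AP, the library with the fewest reads, and at 0.95 and 0.15 FPKM in WT DLP and VP, and had 2.12, 4.08 and 1.22 FPKM in MYC. In DLP the ratio was 4.30 (2.56 to 7.11). The protein of Gsta1 is 95.5% identical to that of Gsta2, and reads may have been divided between them. MYC AP is also the library with seminal vesicle transcripts.

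Of the superoxide dismutases, which turn superoxide into hydrogen peroxide, Sod3 passed the threshold. Sod3, the extracellular form, had 3.00, 5.19 and 4.48 FPKM in WT AP, DLP and VP and 3.78, 3.72 and 1.26 FPKM in MYC, 3.57-fold lower in VP (95% counting interval 3.02 to 4.23). MYC VP was the lowest of the 6 libraries. Sod1, the cytosolic enzyme, followed Prdx6 in mean level over the 6 libraries and had 212.4, 434.8 and 334.1 FPKM in WT and 271.5, 363.9 and 193.6 FPKM in MYC, with a VP log2 ratio of -0.78. Sod2, the mitochondrial enzyme, and catalase (Cat) had log2 ratios between -0.28 and 0.47.

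Genes of glutathione synthesis did not pass the threshold in any lobe. Gclm, the modifier subunit of glutamate-cysteine ligase, had 16.4, 27.0 and 16.4 FPKM in WT AP, DLP and VP and 17.0, 21.8 and 12.4 FPKM in MYC. Gclc, the catalytic subunit, ranged from 9.67 to 15.2 FPKM, and Gss, glutathione synthetase, had a VP level of 7.58 FPKM (WT) against 13.4 FPKM (MYC), a log2 ratio of 0.75. The log2 ratios of these 3 genes lay between -0.44 and 0.75.

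Nfe2l2, which encodes NRF2, had 138.2, 134.2 and 81.5 FPKM in WT AP, DLP and VP and 111.8, 89.6 and 52.7 FPKM in MYC. Each MYC lobe was below the same WT lobe, with log2 ratios of -0.30, -0.58 and -0.62, and none passed the threshold. Hmox1, heme oxygenase 1 (chromosome 8, 75093618 to 75100593), had 58.8, 140.5 and 68.1 FPKM in WT and 42.7, 42.3 and 25.4 FPKM in MYC. All 3 MYC values were below the lowest WT value, and the ratio of WT to MYC was 3.32 in DLP (95% counting interval 3.09 to 3.57) and 2.67 in VP (2.45 to 2.92). Nqo1, a quinone reductase, was low throughout, with 0.16 to 1.57 FPKM.

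Fibroblast and matrix markers were lower in MYC VP, the library with the most lower members. In VP, 9 of the 12 markers were at least 2-fold lower in MYC, with a median log2 ratio of -1.80. In DLP, 5 were lower and 2 higher, with a median of -0.71, and in AP 3 were higher, with a median of 0.42. No defining marker of this list was at 0 in any library. Smooth muscle markers in VP summed to 504.8 FPKM (WT) and 298.0 FPKM (MYC), with 3 of 10 lower. Hematopoietic markers were higher for 15 of 15 compared in DLP and 12 of 15 in VP. The part of these cell types in the members' values was not tested.

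The WT lobes themselves differed in the members. DLP was the highest WT lobe for 26 of the 46 members (56.5%) and for 35.3% of all genes, VP for 16 (34.8% and 32.1%), and AP for 4 (8.70% and 32.6%). In MYC, AP was the highest for 15 members (32.6% and 34.0% of all genes), DLP for 14 (30.4% and 28.1%) and VP for 17 (37.0% and 37.8%). The highest lobe was the same in both mice for 24 members (52.2%) and for 53.0% of all genes. Cell type markers also differed among the WT lobes. In AP, DLP and VP of WT, luminal markers summed to 2858, 2750 and 4843 FPKM, basal markers to 2354, 1597 and 747.8 FPKM, endothelial markers to 229.5, 163.0 and 36.4 FPKM, and red blood cell genes to 915.5, 1016 and 147.5 FPKM. VP was thus the highest in luminal markers and the lowest in the other 3 lists, and the part of this in the lobe pattern of the members was not tested.

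At 2-fold above both other lobes, the WT pattern was held by 5 members. Gpx3, Gstk1, Gstt1 and Gstt3 were highest in WT VP (8.70% of members and 2.40% of all genes), Hmox1 was highest in WT DLP (2.17% and 0.688%), and no member was highest in WT AP (1.17% of all genes). These calls depend on the scaling: with medians of ratios (0.518% of all genes) or equal sums, 0 were highest in WT DLP. Relative to Krt8 and Krt18, 0 members were highest in WT VP. However, Krt8 itself had 399.9, 445.7 and 1292 FPKM in WT AP, DLP and VP, and Krt18 had 548.7, 525.8 and 1611 FPKM. The keratin ratio thus lowers every gene in WT VP against the other lobes, and the 0 cannot show how firm the VP calls are. Gstt3 had the steepest gradient, with a level in WT VP 10.3 times that in WT AP, and Gstk1 was next of the 5 with 8.30 times. In MYC, Prdx6, Gsta3 and Gpx8 were highest in AP (6.52% and 3.29%), Gpx2 and Gsto1 were highest in DLP (4.35% and 2.05%), and none was highest in VP (3.11% of all genes). With a pseudocount of 0.1 FPKM or with medians of ratios, 2 members were highest in MYC VP (4% and 4.39% of all genes). Gstt3 lay at the threshold there, with a VP level in MYC 2.01 times that in DLP. For Gpx3 and Hmox1 the highest lobe was not the same in the 2 mice.

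**Figure D5:**
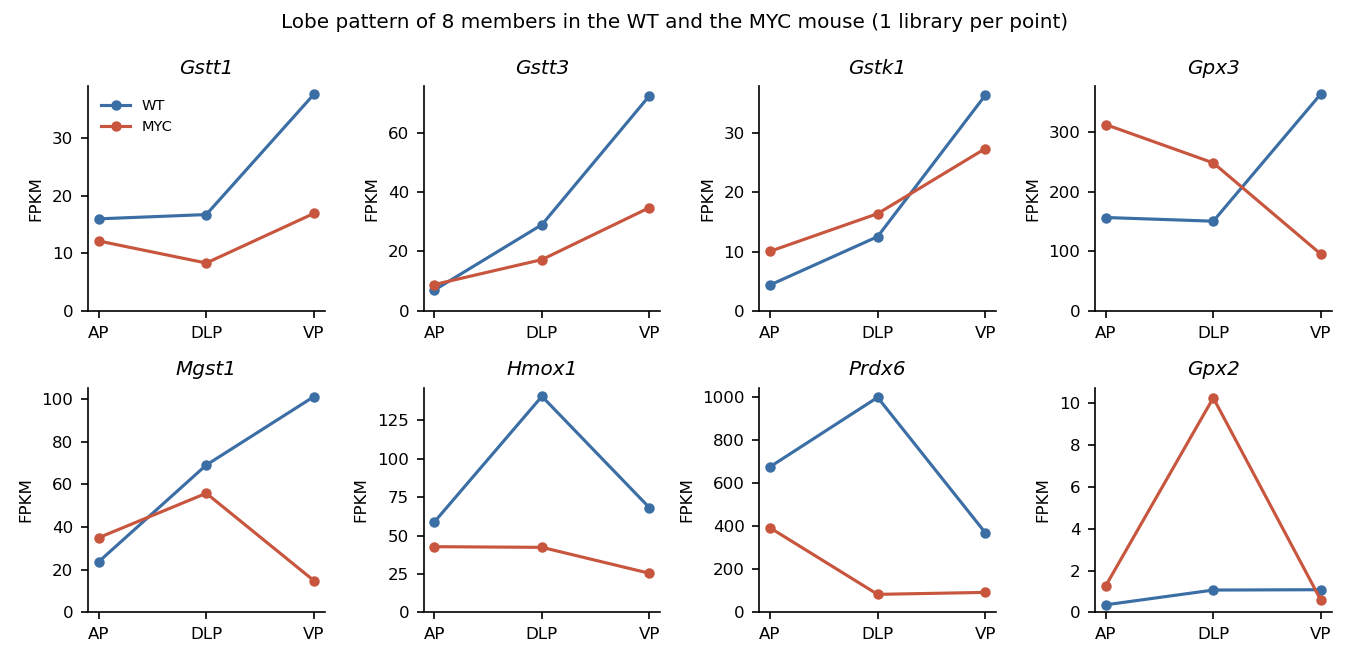
FPKM in AP, DLP and VP of 8 members, with the WT mouse in blue and the MYC mouse in red, 1 library per point; lines join the lobes of 1 mouse and do not stand for a trend. Gstt1, Gstt3 and Gstk1 are highest in VP in both mice, Gpx3 has 364.1 FPKM in VP of the WT mouse and 95.4 FPKM in that of the MYC mouse, and Gpx2 stands out in MYC DLP at 10.3 FPKM.

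Other genes of the same pathways were compared from 2 lists, both of which hold Gsr, Slc7a11 and Srxn1. Of 27 further genes of glutathione and thioredoxin metabolism with a mean of at least 1 FPKM, 3 were higher and 1 lower in AP, 2 higher and 1 lower in DLP, and 1 higher and 2 lower in VP, with median log2 ratios of 0.19, 0.06 and 0.09. Of 29 further partners and targets of NRF2, none passed in AP, 2 were lower in DLP, and 1 was higher and 3 lower in VP, with medians of 0.08, -0.23 and -0.61. The medians of all genes were 0.13, 0.03 and 0.04, and the shares of all genes called were 2.05% higher and 0.599% lower in AP, 6.46% and 3.39% in DLP, and 6.88% and 5.95% in VP. Past the threshold in the same direction in DLP and VP were Dpep1, a dipeptidase that acts on breakdown products of glutathione, the carbonyl reductase Cbr3 and Ugdh, which makes UDP-glucuronate.

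Dpep1 had 20.2 and 14.1 FPKM in WT DLP and VP and 5.98 and 2.10 FPKM in MYC. Cbr3 had 12.8 and 10.6 FPKM in WT DLP and VP and 4.55 and 3.85 FPKM in MYC. Ugdh had 40.6 and 20.1 FPKM in WT DLP and VP and 10.6 and 6.23 FPKM in MYC. All 3 were lower in both lobes of MYC.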

How the data were processed

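The authors dissociated each lobe, made stranded poly(A) libraries and sequenced single-end reads, which were mapped with STAR and quantified with Cufflinks in the VIPER workflow, and the deposited table holds FPKM for 6 libraries. The submitters' processing notes name the mm10 build and bcl2fastq 2.18, and the gene annotation is not given in the sources used here. The methods speak of read counts, but the values are not whole numbers, so no count model was run. Reads per gene were estimated from FPKM, transcript length and the recovered depth. Between 50.9% and 56.1% of low values lay within 3% of a whole read (6% by chance at a depth fixed beforehand). The depth was fitted to these same values, which raises their share. The estimated reads served for exact 95% binomial (Clopper-Pearson) intervals of ratios, which cover counting error only.

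Values were compared as log2(FPKM + 1) for the genes that averaged 1 FPKM or more, with a 2-fold threshold and no p-value, since each lobe and genotype has 1 library. Coordinates come from RefSeq (GRCm38.p6), which held promoter windows of 300 bases for 48 of the 56 members, and identities from GENCODE coding sequences. Genes given with each library's value were the 21 that passed 2-fold between genotypes, were highest in 1 WT lobe by 2-fold, or had the highest mean of their role. Any further gene was picked with its values in view. The members and lists were chosen with earlier results of these data known. Scaling, pseudocount, filters and shared sequence were varied in 10 alternatives, 1 of them added after seeing the data. Computations were tested on simulated libraries. Python 3.11.15, numpy 2.4.6, pandas 2.3.3, scipy 1.17.1, matplotlib 3.10.9 and Biopython 1.88 were used.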

Additional observations from a re-analysis of the deposited data

Results flagged for a closer look

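Of the 46 members compared, 5 (10.9%) were at least 1.5-fold higher in MYC in one lobe and 1.5-fold lower in another, as were 2.97% of all genes, and the lobes were AP and VP in each of the 5. The ratio in AP was positive and that in VP negative for Gpx3 (0.99 and -1.92, a difference of 2.91), Gpx8 (0.65 and -1.66, a difference of 2.31), Gsta4 (0.60 and -1.13, a difference of 1.73) and Gpx7 (0.64 and -0.69, a difference of 1.33). Gsto1, an omega-class transferase, showed the opposite order, with a log2 ratio of 0.996 in VP and -0.60 in AP, a difference of 1.60. With 1 library per lobe and genotype, the difference between the lobes was not tested in any of them. The limit of 1.5-fold was chosen after the data were seen, as were Gsto1 and Gpx7, which the naming rule does not cover. Gpx7 is the least precise of the 5, with an estimated 29 reads in WT AP and 9 in MYC VP.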

How the results depend on the processing

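Of the 22 log2 ratios past 2-fold among the named genes, 22 stayed past it with a pseudocount of 0.1 FPKM, 17 with medians of ratios, and 19 with each of the other scalings. The number lower in VP ranged from 7 to 12. The share of all genes lower in VP moved as well, from 5.95% to 7.42% with medians of ratios. Other counts moved by more than 1.5 times. With a pseudocount of 0.1 FPKM, 5 members were higher in VP (10.1% of all genes). At that setting 2 were highest in WT DLP (1.13%) and 2 highest in MYC VP (4%). With a mean of at least 10 FPKM, 0 were higher in DLP (4.5% of all genes) and 1 was highest in MYC DLP (1.75%). Size factors from medians of ratios gave 1 higher in AP (1.62% of all genes) and 0 higher in VP (5.77%). They gave 0 highest in WT DLP (0.518%), 1 in MYC DLP (1.67%) and 2 in MYC VP (4.39%). Equal sums of FPKM, with or without the 20 highest genes, gave 0 higher in VP and 0 highest in WT DLP. Relative to Krt8 and Krt18, 5 were higher in AP, 7 lower in DLP and 7 higher in VP. By lobe, 5 were highest in WT DLP, 0 in WT VP, 5 in MYC AP and 1 in MYC DLP. Both keratins were highest in VP in each mouse, so this ratio lowers every gene in VP in the lobe comparisons. Shares of all genes are not given for equal sums or the keratin ratio. Without members sharing sequence, 1 was higher in DLP (6.46% of all genes). The cause was not tested, except that fewer genes were compared with the stricter mean and without shared sequence. With the mean of 1 FPKM taken over the DLP and VP libraries alone, chosen after seeing the data, the counts in DLP and VP were those of the report (2 higher and 4 lower, 3 higher and 10 lower). The median of all genes moved by over 0.1 in AP (-0.13 with medians of ratios or no filter, 0.17 with the keratins), in DLP (-0.14 with equal sums without the 20 highest, -0.23 with the keratins) and in VP (-0.19 with equal sums, -0.22 without the 20 highest, 0.26 with the keratins).

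No paired analysis was possible because each lobe and genotype has 1 library, and the results come from no test. Leaving out a library would end the comparison of its lobe, and so was not tried. Depth limits low genes most in WT AP, which has 25.4 M reads. Spread between animals is unknown.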
